A study of Rattus norvegicus with 35 samples.

Results

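The olfactory epithelium of newborn rats was compared with that of young adult rats for every transcript other than the olfactory receptors. Of the 35 arrays of the series, 27 entered the comparison. The 19 newborn arrays came from 19 pups of 4 litters (3 to 5 days old, sex not known, 1 side of the nose each), and the 8 adult arrays came from 4 male rats of 9 weeks, with the 2 nostrils of a rat on separate arrays. All rats were Brown Norway, an inbred strain, and the labels name no treatment. Pups of a litter share a mother, so a litter was taken as 1 sample (the mean of its 4 or 5 pups) and an adult rat as 1 sample (the mean of its nostrils), which gave 4 litters against 4 rats. The arrays were single-colour Agilent Whole Rat Genome arrays, which carry 41012 different probes of 60 bases, and the 1112 probes named Olr (olfactory receptors) were set aside, leaving 39900. The 4 old male Brown Norway rats of 22 months entered the fit to share its estimate of the spread. Omp, which marks olfactory neurons, was above background on all 19 newborn and all 8 adult arrays.

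Levels are given as the log2 of the background-subtracted fluorescence over the median of that array, so that a level of 0 is the median probe and a difference of 1 is a 2-fold change. A difference is newborn minus adult, with its standard error (SE) from the limma fit, and p-values were adjusted over all tested probes by the method of Benjamini and Hochberg. A transcript was said to rise or fall (to be higher or lower in newborns) where the adjusted p was under 0.01 and the difference at least 2-fold. Where none of a group's arrays showed a probe clearly over background, the difference is a bound and is written "at least". For some genes the number of arrays of the dimmer group above background is given. There only those arrays passed, and such a fold rests on values near the floor and is not exact. Bulk tissue was used, so fewer cells of a type and less RNA per cell cannot be told apart.

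The adult arrays were scanned on 2 days on which no newborn array was scanned and on slides of their own, and their files came from another release of the Feature Extraction software, so that age cannot be told apart from scan day, slide or release. Nor can it be told apart from sex, which is male in the adults and not known in the pups. Median fluorescence lay between 81.6 and 162 units on the adult arrays and between 42.1 and 87.7 on the newborn arrays. The number of probes above background, olfactory receptors left out, was 26290 ± 827 (SD, n = 4 litters) in newborns and 26336 ± 527 (SD, n = 4 rats) in adults, with an exact two-sided permutation test p of 0.8857 (the smallest that 4 against 4 allows is 0.0286). The 14 reference genes had a median difference of 0.63, against 0.27 over all genes with a symbol, and of 0.07 after quantile normalization. Of these 14 reference genes, 2 passed the test: Ppia was higher in newborns by 1.05 and Pgk1 by 1.01 on the log2 scale, while Gapdh differed by 0.55 (SE 0.11) and Hprt1 by 0.25 (SE 0.13) without reaching 2-fold. The sign for Gapdh and Hprt1 turned under quantile normalization, and Ppia and Pgk1 lost their call there and with the 75th percentile, Pgk1 also without litter 3 or 4 or adult rat 16. With the array median as reference, other Hprt1 probes differed by 0.47, -0.09 and -0.60, and none was called.

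The olfactory epithelium renews its sensory neurons throughout life. Basal stem and progenitor cells divide and give rise to immature neurons, which extend an axon to the olfactory bulb, grow cilia and switch on the transduction cascade in which an odorant receptor acts through a G protein, adenylyl cyclase and a cyclic nucleotide-gated channel. Sustentacular cells support the neurons and carry high levels of enzymes that metabolise odorants and toxicants, and glands beneath the epithelium secrete the mucus that covers it. At birth the nose is still growing, and the lamina propria beneath the epithelium holds vessels, nerve bundles, immune cells and connective tissue near developing cartilage, bone, muscle and tooth germs.

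The newborn and adult epithelia differed widely. Of 26274 probes tested outside the receptor family, 14401 (54.8%) had an adjusted p under 0.01, 3919 (14.9%) were higher in newborns by at least 2-fold and 2548 (9.7%) were lower, 6467 (24.6%) in either direction. These shares are the background for counts of probes. The gene lists below take 1 probe per gene. With 1 probe for each of the 10228 genes with a symbol, 17.5% were higher and 8.13% lower, with a median difference of 0.27. Past 5-fold, 561 probes (2.14%) were higher and 240 (0.913%) were lower. In terms of genes with a symbol, 1906 of 10228 had a probe that rose and 1142 a probe that fell. Every litter mean lay beyond every adult rat for 15290 probes (58.2%). The median difference over all these probes was 0.14, and the balance of the calls depended on the scaling: 60.6% of the calls were upward with the array median as reference, 49.5% with the 75th percentile (3170 up and 3230 down, median 0.01) and 48.1% after quantile normalization (2889 up and 3122 down, median -0.03).

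**Figure D1:**
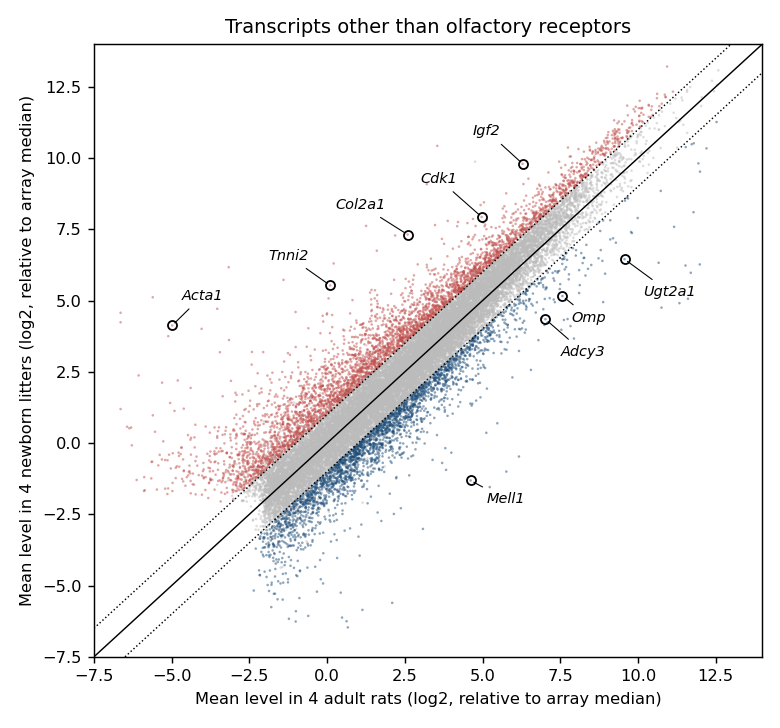
Mean log2 level relative to the array median in 4 adult rats (horizontal axis) and 4 newborn litters (vertical axis) for each tested probe outside the receptor family, with a solid line at equal levels, dotted lines at 2-fold differences, and probes with an adjusted p under 0.01 and a fitted difference of at least 2-fold in red (higher in newborns) or blue (lower). Muscle, cartilage, growth and division genes lie above the upper dotted line, and Omp, Adcy3, Ugt2a1 and Mell1 below the lower one.

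Among the litters, litter 1 stood somewhat apart, with a median difference from the adults of 0.04 against 0.16 to 0.18 in the other litters. It was also the only litter scanned on the day of the old rats, and the part of scan day in this was not tested.

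Genes of the mature olfactory neuron were lower in newborns. Of 21 list members, 16 were tested, 14 fell and none rose, with a median difference of -2.14 against 0.14 over all probes and 0.27 over all genes with a symbol. Omp encodes olfactory marker protein, the standard marker of the mature neuron (probe at chr1:155467292-155467351 of the rat build rn3). Its level was 5.00, 4.99, 5.33 and 5.31 in litters 1 to 4 and 7.85, 7.45, 7.64 and 7.32 in the adult rats. All litters lay more than 1 unit under the lowest adult, and the fall was 5.31-fold (difference -2.41, SE 0.14, adjusted p = 5.9e-08 in limma).

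Genes of the transduction cascade fell too. Gnal encodes the olfactory G protein subunit and was at 6.37, 6.86, 7.04 and 6.81 in the litters against 8.98, 8.76, 8.87 and 8.59 in the adults (4.08-fold lower, SE 0.15 on the log2 scale, adjusted p = 3.1e-07). Adcy3, the adenylyl cyclase of the cilia, lay between 4.14 and 4.53 in the litters and between 6.74 and 7.27 in the adults, which is 6.38-fold lower. Neither gene showed any overlap between the ages, as was so for 58.2% of all tested probes. Among the subunits of the cyclic nucleotide-gated channel, Cngb1 had the largest change of the list: 0.01, 0.57, 0.40 and 0.13 in the litters against 3.71, 3.36, 3.72 and 3.33 in the adults (9.54-fold, adjusted p = 7.6e-09). Another Cngb1 probe did not fall (difference 0.85, not called), so this gene is uncertain. Cnga4 fell by 2.24 and Cnga2 by 1.90 on the log2 scale.

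Ric8b, which helps olfactory G protein signalling, fell by 2.84 on the log2 scale. The phosphodiesterases Pde4a and Pde1c, which end the cyclic AMP signal, fell by 2.49 and 2.36. Stoml3, a membrane protein of the cilia, fell by 2.25, and Rtp1, which carries receptors to the cell surface, by 1.86. The sodium channel gene Scn9a fell by 1.40, Reep6 by 1.32 and the calcium-binding protein gene S100a5 by 1.07. The 2 tested members that were not called were Slc24a4, the exchanger that clears calcium from the cilia, with a difference of -0.69, and Gnb1, a G protein beta subunit used by many cells, with 0.09. Of the other members, Ano2, Gng13, Umodl1 and Kirrel2 had no probe named for them and Rtp2 was not expressed at either age. The fall was also seen beside the old rats scanned on the same day as litter 1. That litter minus the old rats was -3.26 for Omp, -3.14 for Adcy3 and -3.13 for the Cngb1 probe that fell, as values with no test.

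With the array median as reference, genes of immature neurons leaned the other way. Of 19 tested, 6 rose (31.6%) and 1 fell (5.26%), with a median difference of 0.77, against 0.63 for the reference genes. Over all genes with a symbol, 17.5% rose and 8.13% fell, with a median of 0.27. Cxcr4, a chemokine receptor of migrating cells, rose 3.59-fold, Dcx, a microtubule protein of young neurons, 3.08-fold, and Stmn1, another microtubule regulator, 2.72-fold (call lost after quantile normalization, and another Stmn1 probe at 0.90 was not called). Stmn4 fell 2.35-fold, though only by 0.97 on the log2 scale without litter 2, where no member of the list was called lower, and Gap43, the growth cone protein, differed by 0.77 without reaching the threshold. The counts depended on the scaling: 4 rose and 1 fell with the 75th percentile, and 2 rose and 2 fell after quantile normalization, where the median was 0.30.

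Progenitor genes as a group were near the background. Among 18 tested, 4 rose (22.2%), 2 fell (11.1%) and 12 were not called, with a median of 0.13. Over all genes with a symbol, 17.5% rose and 8.13% fell. Neurog1, a transcription factor of neuronal precursors, was at 3.07, 4.69, 3.95 and 4.27 in the litters and at 2.34, 2.26, 2.47 and 2.15 in the adults (3.23-fold higher, adjusted p = 1.1e-04 in limma). The litters and adults did not overlap, as for 58.2% of all tested probes, and litter 1 was the lowest of the litters. Sox4 rose 3.58-fold, with another probe at 0.97 and not called, and Hes6 by 1.59 on the log2 scale. The Notch ligand gene Dll1 fell 3.12-fold and Ebf2 by 1.32 on the log2 scale, while Lhx2, Ebf1 and Insm1 differed by -0.08, 0.05 and 0.16. Of 9 tested genes of horizontal basal cells, the reserve stem cells, only the keratins Krt15 (3.7-fold) and Krt17 (2.42-fold) rose, and Krt17, with litter 1 at 3.01 and the others between 0.78 and 1.31, lost its call under the 75th percentile and quantile scalings and without litter 1, 3 or 4 or any 1 of the adult rats (0.80 to 1.41 on the log2 scale).

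**Figure D2:**
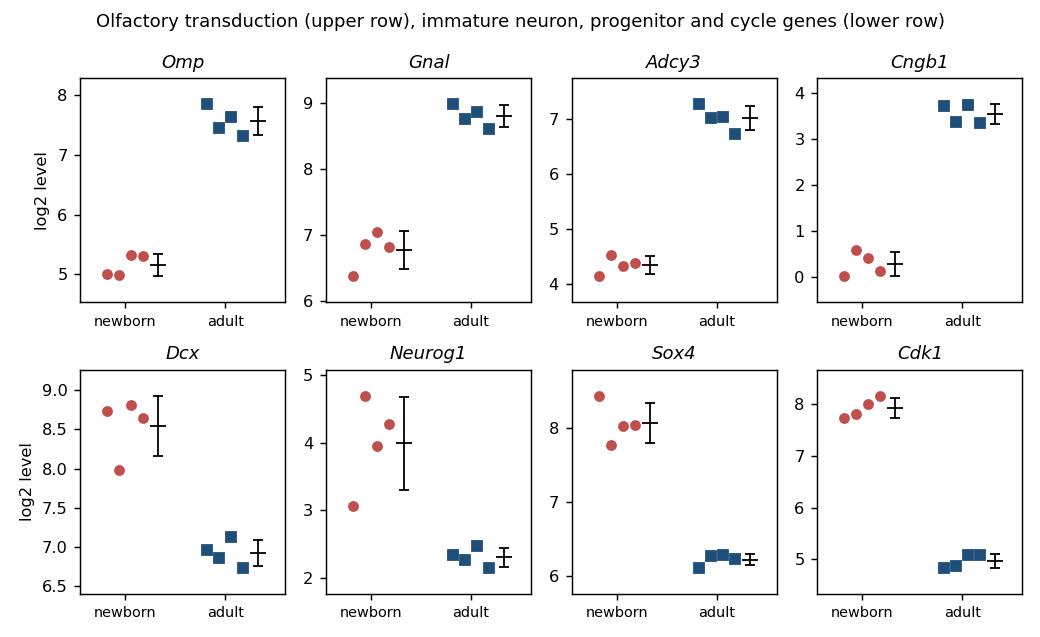
Log2 level relative to the array median of 8 genes, with 1 circle for each newborn litter (mean of its pups, litters 1 to 4 from left to right), 1 square for each adult rat, the mean with its SD beside them, and vertical axes that differ between genes and do not start at 0. Omp, Gnal, Adcy3 and the Cngb1 probe that fell are lower in every litter than in every adult rat. Dcx, Neurog1, Sox4 and Cdk1 are higher in every litter. Litters and adult rats did not overlap for 58.2% of all tested probes.

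Cell division genes had the highest share of calls of the lists with at least 5 tested members. Of 45 mitosis genes 35 were tested and 32 rose, 19 of them by at least 5-fold, with none lower and a median difference of 2.43. Cdk1, the kinase that drives entry into mitosis, was at 7.74, 7.82, 8.01 and 8.16 in the litters against 4.84, 4.86, 5.09 and 5.09 in the adults (7.8-fold higher, SE 0.12 on the log2 scale, adjusted p = 5.3e-09). Cenpt, a centromere protein, rose 7.59-fold and Ttk, a kinase of the spindle checkpoint, 7.28-fold. Mki67, the antigen used to stain cycling cells, was at 3.58 ± 0.08 (SD, n = 4 litters) against 1.1 ± 0.23 (SD, n = 4 rats). The other 3 were not called: Aurkb differed by 0.24, Ndc80 by 0.52 and Kif2c by 0.97.

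Genes of DNA replication rose with them: 27 of 34 tested were higher and none was lower, with a median of 1.73. Ccne1, the cyclin of the entry into S phase, rose 10.4-fold, Chaf1b, which loads histones on new DNA, 6.8-fold, and Mcm3, a subunit of the replicative helicase, 5.2-fold. Other probes of Ccne1 and Mcm3 rose by 2.27 and 1.25 on the log2 scale. The adult levels of Ccne1 were tight, between 1.58 and 1.66, against 4.73 to 5.24 in the litters. Both groups kept their direction under every scaling tried, with 28 to 32 mitosis genes and 19 to 27 replication genes higher. Beside the old rats of the same scan day, litter 1 was higher by 3.49 for Cdk1, 3.45 for Cenpt and 3.69 for Ccne1.

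Promoters of cell cycle genes often carry the cell cycle homology region, with the core TTTGAA, near CCAAT boxes, and these motifs were looked for because the mitosis genes moved together. In RefSeq promoters (build GRCr8, the 250 bases before the start, both strands), 27 of the 32 mitosis genes that rose had an entry, and 14 of these (51.9%) held TTTGAA and 21 (77.8%) held CCAAT. Among all 27457 promoters of that length, 16% held TTTGAA, 34.3% held CCAAT and 5.76% held both, against 51.9% of these mitosis genes with both. Among replication genes that rose, TTTGAA was in 1 of 21 (4.76%) and CCAAT in 9 (42.9%). The palindrome CCCNNGGG, a core of the sites of the EBF factors of olfactory neurons, was in 3 of 11 promoters of the neuron genes that fell (27.3%) and in 11% of all promoters. The share was much the same among skeletal muscle genes that rose, with 4 of 15 (26.7%). It was 3 of 21 (14.3%) among replication genes and 3 of 27 (11.1%) among mitosis genes that rose. A match is a description of the letters only. The 4 mitosis genes with the largest rise among those with an entry are printed below, with matches to either motif on either strand in capitals.
Cdk1 (chr20:19265043-19265292, plus strand): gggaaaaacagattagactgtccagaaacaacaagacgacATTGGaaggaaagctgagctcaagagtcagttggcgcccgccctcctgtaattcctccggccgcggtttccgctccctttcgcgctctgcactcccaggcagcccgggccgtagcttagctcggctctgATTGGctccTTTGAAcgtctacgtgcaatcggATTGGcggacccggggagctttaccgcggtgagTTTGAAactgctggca
Ttk (chr8:93634389-93634638, plus strand): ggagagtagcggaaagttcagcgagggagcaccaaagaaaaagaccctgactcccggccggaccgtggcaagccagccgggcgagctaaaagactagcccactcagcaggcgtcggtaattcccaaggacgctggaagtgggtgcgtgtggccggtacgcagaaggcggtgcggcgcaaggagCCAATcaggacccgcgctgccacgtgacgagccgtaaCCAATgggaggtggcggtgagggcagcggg
Cenpf (chr13:103760887-103761136, minus strand): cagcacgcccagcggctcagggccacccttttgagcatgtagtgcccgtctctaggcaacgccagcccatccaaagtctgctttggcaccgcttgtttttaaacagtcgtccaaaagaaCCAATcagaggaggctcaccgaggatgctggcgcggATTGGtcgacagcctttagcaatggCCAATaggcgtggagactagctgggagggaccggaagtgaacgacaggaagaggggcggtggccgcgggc
Cdc20 (chr5:137255800-137256049, minus strand): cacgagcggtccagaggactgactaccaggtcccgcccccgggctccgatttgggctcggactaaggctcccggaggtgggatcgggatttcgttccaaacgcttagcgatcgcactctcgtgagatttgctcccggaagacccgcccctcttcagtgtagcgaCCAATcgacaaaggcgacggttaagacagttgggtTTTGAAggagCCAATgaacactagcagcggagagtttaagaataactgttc
Cdk1 and Cdc20 held both motifs in this window, with TTTGAA close to a CCAAT box, and Ttk and Cenpf held CCAAT alone.

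Some sustentacular and detoxifying genes were lower in newborns. In the sustentacular list 6 of 16 tested genes fell and none rose (median -0.76). Ugt2a1, the olfactory glucuronosyltransferase, was at 6.70, 6.39, 6.43 and 6.27 in the litters and at 9.66, 9.45, 9.72 and 9.42 in the adults, an 8.67-fold fall (adjusted p = 8.8e-09). Gpx6, a glutathione peroxidase of the olfactory mucosa, fell 5.4-fold, and litter 1 was the lowest at 6.65. Cyp1a2 fell 13.2-fold by a probe that had a value in 3 of the 4 adult rats (7.61 to 8.02, against 3.73 to 4.42 in the litters) and 15.9-fold by another probe with a value in all of them. Krt8 and Krt18, the keratins of the supporting layer, differed by -0.11 and 0.62 and were not called.

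The fall was not general to drug-metabolising enzymes. Of 23 tested cytochromes P450, 6 fell (26.1%) and 2 rose (8.7%), with a median of -0.33. Of 42 tested conjugating enzymes, 6 fell (14.3%) and 2 rose (4.76%), with a median of -0.25. Over all genes with a symbol, 8.13% fell and 17.5% rose. Among the tested members of these lists, those that fell most were Cyp2e1 (9.33-fold) and Cyp3a9 (9.1-fold) beside Cyp1a2, and, among conjugating enzymes, the sulfotransferase gene Sult1b1 (6.5-fold) and Ugt8 (6.08-fold) beside Ugt2a1. Those higher in newborns included Cyp2t1 (2.67-fold) and the cholesterol sulfotransferase gene Sult2b1 (3.88-fold). Cyp2b21, which is not in the list, fell 27.1-fold. Ugt8 was above background on 4 of 19 newborn arrays and lost its call with litter as a random block, with normexp and in the methods' t-test on litter means. After quantile normalization the conjugating enzymes counted 14 lower and 2 higher. Probes of Gsta1, a glutathione transferase gene, were called in opposite directions.

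Genes of secretory cells moved upward in part: 5 of 15 tested rose and none fell, though the 75th percentile gave 3 up and 2 down and quantile normalization 3 and 3. Muc5ac, a gel-forming mucin, was at 5.38, 2.88, 3.47 and 4.17 in the litters and at 0.83, 0.08, -0.26 and 1.42 in the adults (11-fold higher, adjusted p = 6.1e-04), and it lost its call with litter as a random block. Muc1, a membrane mucin, rose 2.98-fold, and Lcn2, an iron-binding lipocalin, 3.07-fold. Lcn2 lost its call with normexp and in the methods' t-test on litter means. Litter 1 minus the old rats of the same scan day was -0.22 for Lcn2, against its rise. That difference was 0.62 for Muc1 and was positive for Muc5ac too, as values with no test. For the odorant-binding protein genes Obp1f and Obp2b the differences were 2.56 (SE 1.12) and -2.67 (SE 1.21), with adjusted p of 0.0604 and 0.0674, so that neither passed. Csap1, common salivary protein, was uneven among the litters. It was at 8.56, 8.62 and 9.09 in litters 1, 3 and 4, at 4.18 in litter 2, and between 1.03 and 1.71 in the adults. It lost its call against the 2 adult rats of the first scan day alone.

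Genes known from tissues other than the neuroepithelium gave the largest rises. The top 20 named genes in the upward direction held muscle, tooth, cartilage, red cell and gland genes and none from the lists of the neuronal lineage.

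**Figure D3:**
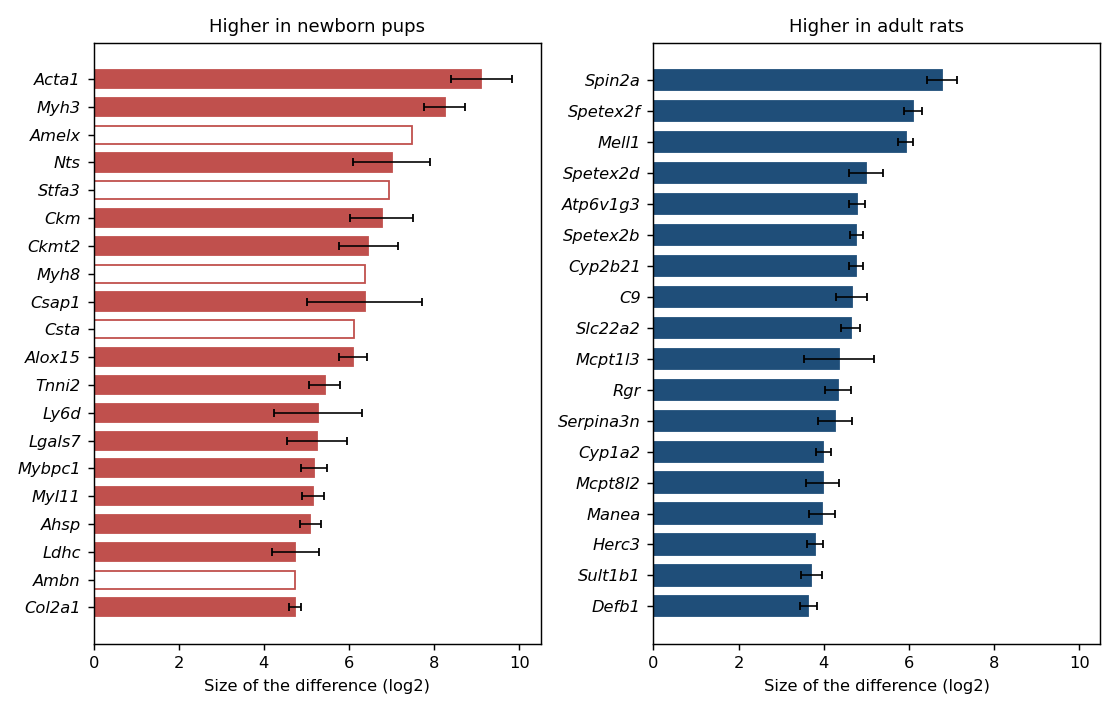
Size of the difference between newborn litters and adult rats on the log2 scale for the named genes with the largest differences in each direction, as bars with their SE, or as open bars for lower bounds, with Eif4g3 and Dusp8 (a value in 1 adult rat only) left out. Acta1, at 9.11 against adult values near the floor, has the longest bar of the left panel, where open bars such as those of Amelx and Stfa3 are bounds and have no order, and Spin2a, at -6.77, has the longest of the right one.

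Skeletal muscle genes rose in 16 of 18 tested (median 2.93), 12 of them by at least 5-fold. Acta1, the actin of skeletal muscle, was at 3.30, 4.70, 4.22 and 4.29 in the litters. In the adult rats it was between -6.41 and -3.11, above background on 1 of 8 arrays, which made a 552-fold fitted difference (SE 0.71 on the log2 scale, adjusted p = 4.4e-07). Myh3, the embryonic myosin heavy chain, rose 303-fold by the probe of the largest change and 140-fold by the brighter probe (the first above background on 1 of 8 adult arrays, the second on 7), and Myh8, the perinatal one, at least 82.4-fold. Ckm, muscle creatine kinase, rose 109-fold (above background on 2 adult arrays), and the fast troponin gene Tnni2 43.1-fold. Single pups ranged widely, from 1.14 to 6.74 for Acta1.

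Cartilage followed with 11 of 16 tested genes higher and none lower (median 1.38). Col2a1, the main cartilage collagen, was at 6.89, 7.45, 7.40 and 7.51 in the litters and at 2.53, 2.58, 2.63 and 2.61 in the adults (26.5-fold, SE 0.14 on the log2 scale, adjusted p = 1.4e-09). Hapln1, which links hyaluronan to proteoglycan, rose 21.3-fold and was above background on 1 adult array. Cnmd, which encodes chondromodulin, rose 15.4-fold. Bone genes did not move as a group, with 2 of 13 osteoblast genes higher (1 without litter 2 or adult rat 14 or 15) and none lower (2 without litter 2, 1 without adult rat 15), and quantile normalization gave 1 higher and 2 lower. Col1a2, a bone and skin collagen, was 2.13-fold higher but under 2-fold without litter 2 or adult rat 15 (0.99 and 0.97 on the log2 scale), and another Col1a2 probe at 0.31 was not called. Dlx3 was 3.42-fold higher with its call lost without adult rat 14 and was above background on 1 adult array. Col1a1 differed by 0.31 (SE 0.29), although another Col1a1 probe, at 1.04, was called. Of 12 osteoclast genes 4 rose, led by Mmp9 (3.67-fold) and Acp5 (3.03-fold), and 2 fell, with Tnfrsf11a 2.94-fold lower.

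Enamel genes were also among the top 20. Amelx, amelogenin, was at 9.14 in litter 1, 5.28 in litter 2, 2.37 in litter 3 and 3.66 in litter 4, and was well above background on no adult array, which makes it at least 178-fold higher (adjusted p = 5.0e-06). Ambn, ameloblastin, had the same order of litters, 6.45, 2.29, -0.17 and 0.92, and was at least 26.6-fold higher. Single pups lay between -1.49 and 12.45 for Amelx, a spread far wider than for the neuronal genes, where Omp lay between 4.43 and 5.72.

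The stefin genes Stfa3 and Csta were at least 122-fold and at least 69.2-fold higher, both well above background on no adult array. Ly6d rose 38.7-fold (above background on 2 adult arrays) and Lgals7 38-fold (on 5). Litter 1 held the highest level of Stfa3 (6.58, others 3.47 to 4.30), Csta and Lgals7. Alox15, a lipoxygenase, was 68.2-fold higher, with litters between 5.71 and 7.32 and adults between -0.04 and 0.52.

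**Figure D4:**
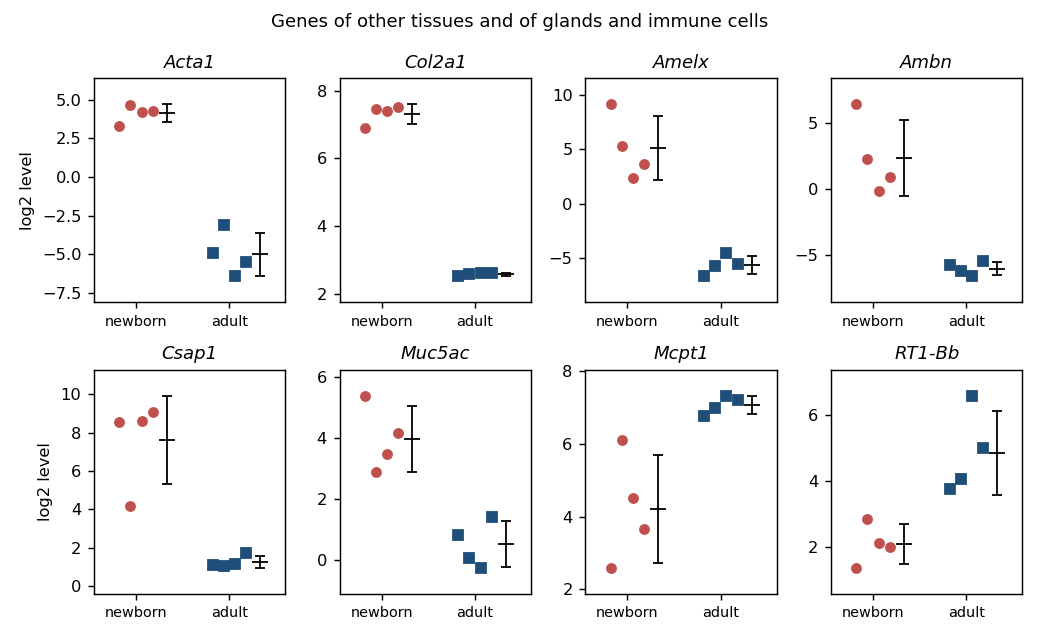
Log2 level relative to the array median of 8 genes of muscle, cartilage, enamel, glands and immune cells, with 1 circle for each newborn litter (litters 1 to 4 from left to right), 1 square for each adult rat, the mean with its SD, and vertical axes that differ between genes and do not start at 0. Col2a1 varies little within an age, while Amelx, Ambn, Csap1 and Mcpt1 vary by several units among litters.

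Many matrix, vessel and growth genes were higher in newborns. Of 23 tested genes of fibroblasts and matrix, 17 rose and none fell (median 1.68), and Fbn2, the fibrillin of developing tissue, was at 5.40, 5.00, 5.10 and 5.26 in the litters against 1.64, 1.78, 1.58 and 1.44 in the adults (12-fold). Vcan, versican, rose 9.59-fold and Fbn1 8.84-fold. Of 15 tested endothelial genes 10 rose and none fell (median 1.26). Sox18, a transcription factor of vessels, rose 5.47-fold and Egfl7, a secreted endothelial factor, 4.61-fold, while Cdh5, the cadherin of endothelial junctions, was at least 4.18-fold higher by a probe that was well above background on no adult array. A second Cdh5 probe was not called (difference 0.69). Growth genes of the fetal period rose in 10 of 18 tested, with 1 lower (median 1.35). Igf2, the fetal growth factor, was at 9.49 to 9.95 in the litters and at 5.98 to 6.67 in the adults (11.4-fold), Igfbp3, which binds it, rose 11.1-fold, and the imprinted gene Ndn 18.1-fold. Igfbp5 fell 2.6-fold, but another Igfbp5 probe went the other way (difference 0.46, not called), so this gene is uncertain.

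Signals that pattern tissues were split but leaned upward, with 15 of 39 tested higher and 5 lower (median 0.77). Gli1, a target of hedgehog signalling, rose 8.65-fold, and Gdf10 and Fst, an antagonist of activin, rose 5.11- and 5.08-fold. Fgf20 fell 3.05-fold. Without litter 3 or adult rat 16 the list counted 3 lower. Axon guidance genes were near balance with 2 of 30 higher and 4 lower (median 0.03). The netrin receptor gene Unc5c rose 10.3-fold (above background on 5 adult arrays), and Epha7, Epha5 and Plxna3 fell between 3.21- and 3.28-fold, although another Epha7 probe was not called at 0.29. Genes of glia and myelin moved both ways, 6 up and 5 down of 18 (3 down without adult rat 13). Prx and Pmp22, which are myelin genes of peripheral nerve, rose 2.74- and 2.59-fold, and Mal fell 4.45-fold. After quantile normalization 4 glial genes rose and 6 fell.

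Blood cells differed by type. Red cell genes rose in 10 of 13 tested and 1 fell (median 2.83). Ahsp, the chaperone of alpha globin, was at 7.60, 7.46, 6.76 and 7.30 in the litters and at 1.75, 2.25, 2.11 and 2.65 in the adults (34.2-fold, adjusted p = 1.2e-08). Slc4a1, the anion exchanger of the red cell membrane, rose 18.4-fold, and Hbe1, an embryonic globin, 24.4-fold, above background on 2 adult arrays. Rhag was the exception, 2.97-fold lower. Neutrophil genes rose in 8 of 14 with 1 lower (median 1.70): Mpo, myeloperoxidase, 23.6-fold, the defensin gene Defa5 11.7-fold and Ngp 10.4-fold, while Mcpt8 fell 7.11-fold. Mcpt8 is a protease gene of basophils. Mpo and Ngp were above background on 2 adult arrays each, and Defa5 lost its call without litter 2 or 4 or adult rat 13 or 16 (3.09 to 3.48 on the log2 scale).

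Lymphoid and mast cell genes went the other way in part. None of 15 tested T and NK cell genes rose and 5 fell, but 3 rose without adult rat 15 and 1 without litter 1, and 3 fell without litter 1 or litter 3. Gzmb, granzyme B of killer cells, was well above background on no newborn array and was at 0.39 to 1.83 in the adults, at least 9.75-fold lower in newborns, and Icos fell 7.66-fold (above background on 2 newborn arrays). Prf1, perforin, fell 4.2-fold (on 3 newborn arrays), with adult rat 15 at 1.53 and the other adult rats between -1.40 and -1.04, and it lost its call without the filter on dim probes and without litter 1 or 3 (-1.85 and -2.03 on the log2 scale). Of 6 tested B and plasma cell genes, 2 rose and 2 fell (3 rose without adult rat 15, and 1 without adult rat 13 or 14 or any of 5 single pups): Vpreb1, part of the receptor of B cell precursors, was at least 3.4-fold higher, and Cd38 was 4.04-fold lower (above background on 9 newborn arrays). Among mast cell and basophil genes 5 of 10 fell and 1 rose. Ms4a2 and Fcer1a, chains of the IgE receptor, fell 12- and 7.4-fold, above background on 1 and 6 of 19 newborn arrays, and the mast cell protease gene Mcpt1 7.28-fold, from 2.58 in litter 1 to 6.11 in litter 2 against 6.78 to 7.32 in the adults. Fcer1a lost its call with litter as a random block, with normexp and in the methods' t-test on litter means. Cma1, mast cell chymase, was 11.9-fold higher in newborns and above background on 1 of 8 adult arrays. Of 15 tested macrophage genes only Cd68 was called (2.54-fold higher).

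Genes of class II antigen presentation were lower in part. Of 10 tested genes of the class II pathway, 6 fell and none rose, or 1 rose without litter 1 or adult rat 15 (median -1.86). RT1-Bb, a class II chain, was at 1.37, 2.87, 2.14 and 2.0 in the litters and at 3.77, 4.06, 6.58 and 5.01 in the adults (6.77-fold, SE 0.51 on the log2 scale, adjusted p = 4.4e-04). Cd74, the invariant chain, fell 6-fold and RT1-Ba 5.64-fold. In all 3 genes rat 15 was the highest adult, and all 3 kept their direction but lost their call in the methods' t-test. Genes of interferon response and class I presentation were less uniform, with 2 up (6.45%) and 4 down (12.9%) of 31. Over all genes with a symbol, 17.5% rose and 8.13% fell. Without adult rat 15 the interferon list counted 5 up and 2 down. In it 1 rose without litter 2 or adult rat 13, 14 or 16, and the number that fell ranged from 2 to 6 when 1 litter, pup or rat was left out. Mx2 fell 6.17-fold, Tapbp, which loads class I molecules, 2.46-fold and RT1-A3 2.45-fold (under 2-fold, at -0.96 on the log2 scale, without adult rat 15), and Ifit1 rose 8.72-fold. Among 24 tested complement genes, 3 fell (12.5%), 1 rose (4.17%) and 20 were not called (median -0.01). C9, the pore-forming component, fell 25.2-fold from an adult level of 2.37 ± 0.69 (SD, n = 4) and was above background on 8 of 19 newborn arrays. C4a fell 3.37-fold and Fcna rose 3.07-fold.

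The genes lower in newborns by the largest amounts were mostly outside the cell lists. Spin2a, a serine protease inhibitor, was at -2.23, -0.58, -1.63 and -1.74 in the litters and at 4.48, 5.07, 5.91 and 5.45 in the adults (109-fold lower, adjusted p = 2.2e-08), and was above background on 12 of 19 newborn arrays. Serpina3n, its relative, fell 19.3-fold, with litter 1 lowest at 2.12. Spetex2f, Spetex2d and Spetex2b, which are copies of 1 family, so that their probes may share transcripts, fell 68.3-, 31.9- and 27.2-fold, with Spetex2f above background on 4 and Spetex2d on 1 of 19 newborn arrays. Mell1, a membrane metallopeptidase, was at -1.18, -1.84, -1.21 and -1.02 in the litters and between 4.28 and 4.80 in the adults (60.9-fold, above background on 17 of 19 newborn arrays). Atp6v1g3, a subunit of the proton pump, fell 27.5-fold, and Cyp2b21 27.1-fold (another probe at -2.51 on the log2 scale). Slc22a2, an organic cation transporter, fell 24.8-fold (above background on 8 newborn arrays) and Rgr, an opsin, 20.1-fold (on 18). The protease genes Mcpt1l3 and Mcpt8l2 fell 20.5- and 15.8-fold, Mcpt1l3 with 6 and Mcpt8l2 with 18 newborn arrays above background.

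Manea and Herc3 fell 15.6- and 13.9-fold against the adults, but the old rats were at -1.74 and 0.63, nearer to the litters for Manea, which was above background on 1 of 19 newborn arrays. Herc3 was above background on 14 newborn arrays, and another Herc3 probe fell by 1.88 on the log2 scale. Defb1, a defensin, fell 12.4-fold and was above background on 4 newborn arrays, and it lost its call with litter as a random block and with normexp. Eif4g3 and Dusp8 met the same rule on the value of 1 adult rat alone (11.33 and 10.75), since the spots of the other adult arrays carried outlier flags. The other Eif4g3 probes differed by 0.30 and -0.27, and the old rats were at 4.86 and 4.50, close to the litters.

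Other pathways were mostly not called, beside 17.5% of all genes with a symbol that rose and 8.13% that fell. Of 45 tested genes of the respiratory chain 6 rose and 1 fell, and these counts depended on the scaling, with 3 up and 2 down after quantile normalization (median 0.06 against 0.74) and 1 up and 4 down with normexp. Without litter 1 the count was 13 up, without any other litter or rat 5 to 7, and without litter 2 it was 2 down. Ndufa2 and Ndufv1 rose 2.81- and 2.49-fold, yet litter 1 and the old rats of the same scan day differed by -0.18 for both. Cox8b, a subunit of cytochrome oxidase, fell 11.8-fold, from 7.33 to 7.73 in the adults to 3.24 to 4.42 in the litters. Of 14 tested genes of motile cilia, Tekt4 (2.47-fold) and Spata18 (2.38-fold) rose and Dnah11 fell (2.4-fold), though another Dnah11 probe, at 0.44, was not called. Litter 1 minus the old rats was -0.11 for Tekt4, 0.31 for Spata18 and -0.99 for the Dnah11 probe that fell. In the circadian clock list, 2 of 16 fell (4 without litter 2), Nr1d2 3.45-fold and Npas2 2.41-fold, and the time of day of dissection was not given in the sources used here. As a check on sex, which the labels do not give for the pups, 8 sex chromosome genes were listed, but 6 had no probe named for them. Of the 2 tested, the X-linked Kdm6a was higher in newborns by 2.19 on the log2 scale (SE 0.17) while Eif2s3x differed by 0.18 (SE 0.13). These 2 did not move alike, so the sex of the pups cannot be told from them.

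**Figure D5:**
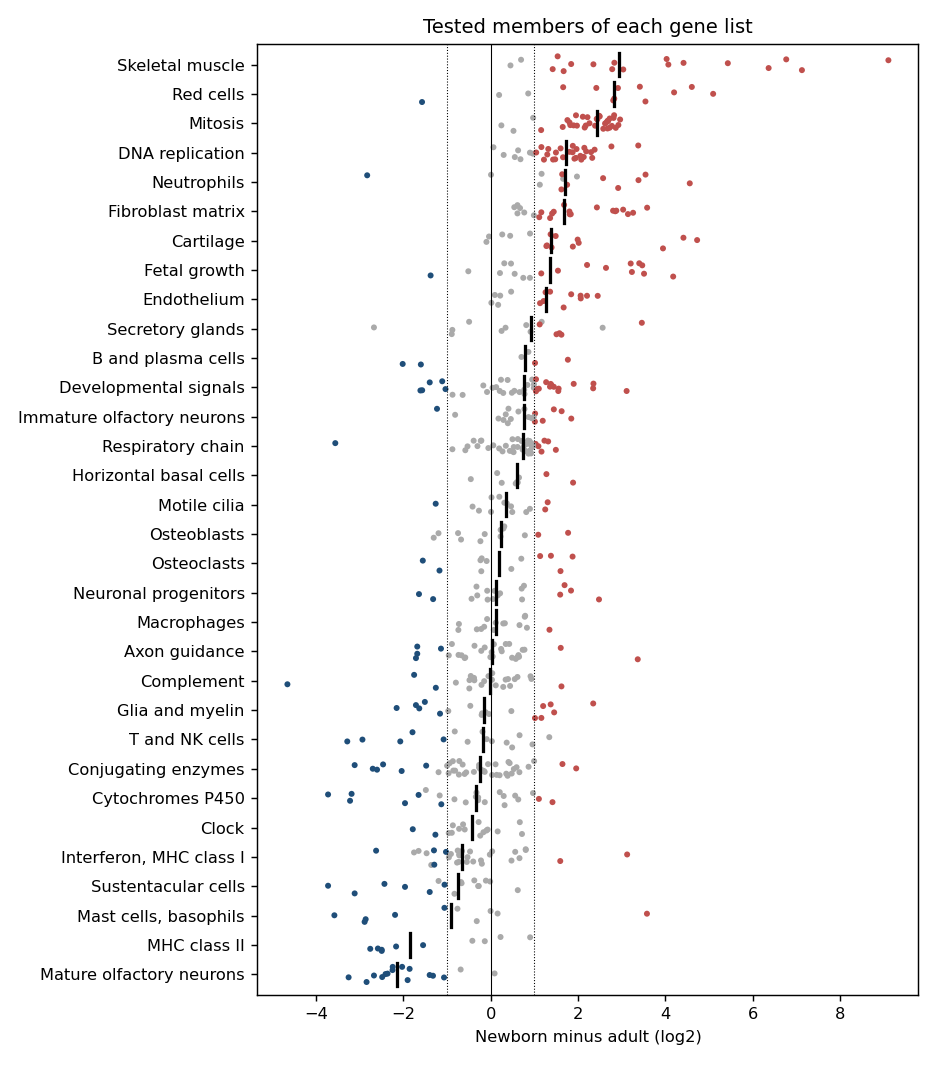
Difference between newborn litters and adult rats on the log2 scale for every tested member of each gene list, with lists ordered by their median (black bar), dotted lines at 2-fold, and red points for members that rose, blue for those that fell and grey for those not called. Skeletal muscle has the highest median (2.93) and mature olfactory neurons the lowest (-2.14).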

How the data were processed

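Olfactory epithelium RNA (RNA integrity number above 8.5 per the labels) was copied, labelled with Cy3 and hybridized by the authors, who scanned the slides and deposited Agilent Feature Extraction files (release 9.5.1.1 for the adult arrays, 9.5.3.1 for the others). The deposited values used here are the intensity gProcessedSignal, which the software had background-subtracted, and gMeanSignal with gBGMedianSignal for an alternative. The authors' matrix, a ratio to the array median and to a constant per probe, served as an alternative: all 41012 probes matched, and for 99.43% of them its log2 differed from the scanner values by 1 constant (SD over arrays under 0.01).

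Spots with outlier flags (4189 values) were left out and spots of a probe averaged. Each value was divided by the array median over non-control probes, set to at least 0.01 and taken to log2. A probe was tested where it was above background on at least 3 arrays of every litter or on at least 6 of 8 adult arrays. Of 26295 such probes outside the receptor family, 21 had no value for a whole group and dropped out. Litter means, adult rats and old rats were fitted with limma 3.58.1 in R 4.3.3, all groups sharing 1 estimate of the spread, and p-values were adjusted by Benjamini-Hochberg over all tested probes. The number of arrays limits the precision. Where none of a group's arrays showed a probe clearly over background, a bound replaced the difference. The fit was tested on simulated data. Alternatives were other scalings, filters, replicate units, random blocks, the methods' t-test and leaving out each replicate.

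The comparison and the 34 gene lists were chosen with earlier results of these data known. A gene with several probes was represented in a list by the one of highest mean level. Genes were named by rule: the 20 with the largest change in each direction among called genes with a symbol, no overlap between litters and adult rats and a brighter group well above background on at least 0.5 of its arrays, then in each list with at least 5 tested members the 3 with the largest called change in the commoner direction and 1 in the other, and Omp, Gnal, Hprt1 and Gapdh. Other list members are named to account for the list. Probe symbols came from the array annotation, and 10860 probes were named through their accession. Python 3.11.15 was used for the tables. The authors' own comparisons were not used. Some genes that the rule names are not reported here.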

Additional observations from a re-analysis of the deposited data

Results flagged for a closer look

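In 290 groups of 4 litters or 4 adult rats of the named genes, the highest or lowest sample was set against the others, and 12 lay far out by Dixon's criterion, while chance alone marks about 1 group in 20. Among the litters, Csap1 was lowest in litter 2 at 4.18 (others 8.56 to 9.09), Rhag was highest in litter 2 at 1.86 (others 0.92 to 1.0), and Ngp was lowest in litter 3 at -1.02 (others 0.04 to 0.14). Litter 1 was lowest for Sdc1 at 7.90, for Ttk at 3.88 (others 4.55 to 4.63) and for Gapdh at 9.09 (others 9.29 to 9.33). Among the adults, rat 15 was lowest for Car2 at 4.73, for Hapln1 at -4.24 (others -2.56 to -2.48) and for Ndn at 2.35 (others 3.72 to 3.92), and highest for Prf1 at 1.53 (others -1.40 to -1.04). Rat 14 was highest for Spetex2f at 3.24, and rat 16 was lowest for Epha7 at 0.43. The gaps for Car2, Sdc1 and Spetex2f were small beside the difference between the ages.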

How the results depend on the processing

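Across all settings the calls ranged from 1541 to 4101 higher and from 1426 to 3230 lower. The lowest counts came from normexp background correction with quantile normalization, with 1541 higher, 1426 lower, 115 at least 5-fold higher and 99 at least 5-fold lower. Restricting the test to probes expressed at both ages left 139 at least 5-fold lower, and the methods' t-test on litter means left 52 list members lower instead of 83. Leaving out 1 litter, pup or adult rat gave 3710 to 4101 higher, 2392 to 2656 lower, 509 to 620 at least 5-fold higher, 221 to 260 at least 5-fold lower, 194 to 218 list members higher and 78 to 89 lower. The difference in probes above background ranged from -404.658 to 247.575, and was 247.575 without litter 2, 60.175 without litter 3 and 190.725 without adult rat 14. Complement genes that rose numbered 1, but 2 without litter 1 and 3 without adult rat 16, and cytochromes P450 that rose 2, but 1 without litter 2. Hprt1 turned to -0.24 under quantile normalization and -0.23 with normexp, and Gapdh to -0.18 and -0.0376. The cause of these changes was not tested. Acp5, Ndufv1, Sdc1 and Tekt4 lost their call after quantile normalization, and Lcn2, Spata18 and Tekt4 against the adult rats of the first scan day alone. Of the 145 named genes, 36 lost their call in the methods' t-test on litter means and 38 with normexp. Chosen after seeing the data were 3 alternatives: the adult rats of the first scan day alone gave 3585 higher and 2744 lower, those of the second 4046 and 2268, and probes with a value in every litter and adult rat 3913 and 2535. No paired analysis was possible because the groups share no replicate numbers. Dim probes limit the low end: 185 calls rest on a bound.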

Other observations

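Gene families were counted by symbol after the values were seen, with 17.5% of all genes with a symbol higher and 8.13% lower. Ribosomal protein genes were higher in newborns in 60 of 77 tested with none lower (median 1.29), but in 54 with the 75th percentile, 10 after quantile normalization and 9 with normexp. Proteasome subunits were higher in 11 of 41, and in none after quantile normalization. Histone genes rose in 11 of 21 (7 after quantile normalization) and keratins in 10 of 15 with 1 lower (7 after quantile normalization). Among sodium and calcium channel subunits 7 of 28 rose and 10 fell, and among potassium channels 10 of 56 rose and 12 fell. Receptors for GABA and glutamate rose in 6 of 22 with 1 lower, and cathepsins fell in 4 of 14 with 1 higher. Solute carriers were near the background, with 34 of 235 higher and 29 lower.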
